A study of Arabidopsis thaliana with 12 samples.

Results

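The 64 genes described here are those whose probes gave the most intense signal in water-treated Arabidopsis thaliana. Among the 692 probes that the platform annotation pairs with exactly 1 gene, out of 3439 probes on the array, the 69 with the highest mean deposited value over the 6 water arrays form the top 10%. Of these 69, 5 were set aside by name (PSBW, NdhS, LHB1B2, PSAN and AT5G65220), which leaves 64 genes. The genes were thus chosen by their values on the 6 water arrays, and their height in water is given as a description, without a test. A probe's intensity depends on the probe as well as on its transcript. The order of the 64 genes is therefore an order of signals, and it was not taken as an order of transcript abundance.

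The arrays held total RNA of wild-type plants of the Columbia 0 ecotype. In the group called H2O the plants spent 8 h in water (6 arrays). In the group called pStau they spent 4 h in water and then 4 h with staurosporine, given in the labels as 25 mM at pH 5.5 (6 arrays). Staurosporine blocks protein kinases broadly. The labels name neither a tissue nor the plants behind each array, and the spread that p-values rest on is that among the arrays, which may be technical. Of 23 marker genes listed for mesophyll, guard cell, root, phloem, pollen and seed, 0 were on a probe with a single gene, so the tissue was not checked against markers. In bulk RNA, fewer cells of a type and less RNA per cell cannot be told apart.

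In green plant cells many abundant nuclear transcripts encode proteins that are imported into the chloroplast. Pentatricopeptide repeat proteins bind organelle RNAs and act in their splicing, editing and stability. The pfkB family holds kinases of sugars and nucleosides. Roles stated below for single genes are general knowledge of those loci, because the annotation gives names alone. A role is stated for 44 of the 64 genes, and 20 are left without one.

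Arrays 1 and 2, 3 and 4, and 5 and 6 of a group were close to each other. Over the 64 genes the median difference between such consecutive arrays was 1.04-fold to 1.05-fold in H2O and 1.06-fold to 1.07-fold in pStau. It was 1.25-fold to 1.42-fold between other H2O arrays and 1.22-fold to 1.33-fold between other pStau arrays. The median over all probes was also lower in pStau, at 0.405 to 0.485 on the H2O arrays and 0.169 to 0.392 on the pStau arrays, while array totals were alike (3054 to 3562 and 3139 to 3541). Whether the 6 arrays of a group are 6 or 3 independent samples is not stated, and array processing cannot be told apart from treatment where it moves with the groups.

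In H2O the signals of the 64 genes fell off steeply from the top. The mean deposited value was 96.1 for the first gene, 2.67 for the median gene and 1.43 for the last, against a median of 0.461 over all probes with 1 gene. It exceeded 10 for 9 genes and 5 for 16, and was under 3 for 37. All 64 genes were above 0 on all 12 arrays. The 3 genes just inside the cut were AT1G22700 (1.48), AT2G36480 (1.45) and AT1G18290 (1.43). The first probes just outside it were AT4G13680 (1.43), AT4G21770 (1.41) and AT2G31920 (1.41). The cut therefore runs through closely spaced values.

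For most genes membership did not hang on a single H2O array. With any single H2O array left out, 58 of the 64 stayed in the top 10%, and 62 or 63 stayed for each array. The 6 that left were AT4G24930, AT1G22700, AT1G18290, AT3G26580, AT2G36480 and AT3G24190. Consecutive arrays were close, so each array left out had a near match still in the mean. Membership without a whole set of consecutive arrays was not computed. On every one of the 6 H2O arrays, 41 of the 64 were in the top 10%. AT3G24190, an ABC1-type atypical kinase of the plastid, owed its place to 1 array. Its H2O values were 1.07 at the lowest, 1.31 at the median and 6.12 at the highest, the last on array 4. Without that array its H2O mean was 1.28 and its rank 88, outside the top 10%.

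How the same genes ranked after staurosporine was asked of the pStau arrays, which had no part in choosing them. They are not fully independent of the choice, because arrays of the same number in both groups deviated together. The cut was the same, rank 69 among the probes with 1 gene, by mean deposited value. Of the 64 genes, 56 lay in the pStau top 10% and 8 lay below it. The first 20 genes in H2O all stayed, and 47 of the first 50 did. For 49 genes the rank moved by at most 10 places, a count that was not made for the other probes with 1 gene. Ranks were higher in pStau for 27 genes, lower for 30 and equal for 7. On single arrays 50 to 56 of the 64 were in the top 10% in pStau and 52 to 60 in H2O, and 36 were there on all 12 arrays. The counts on single arrays use ranks within an array, which scaling one array against another leaves as they are.

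**Figure D1:**
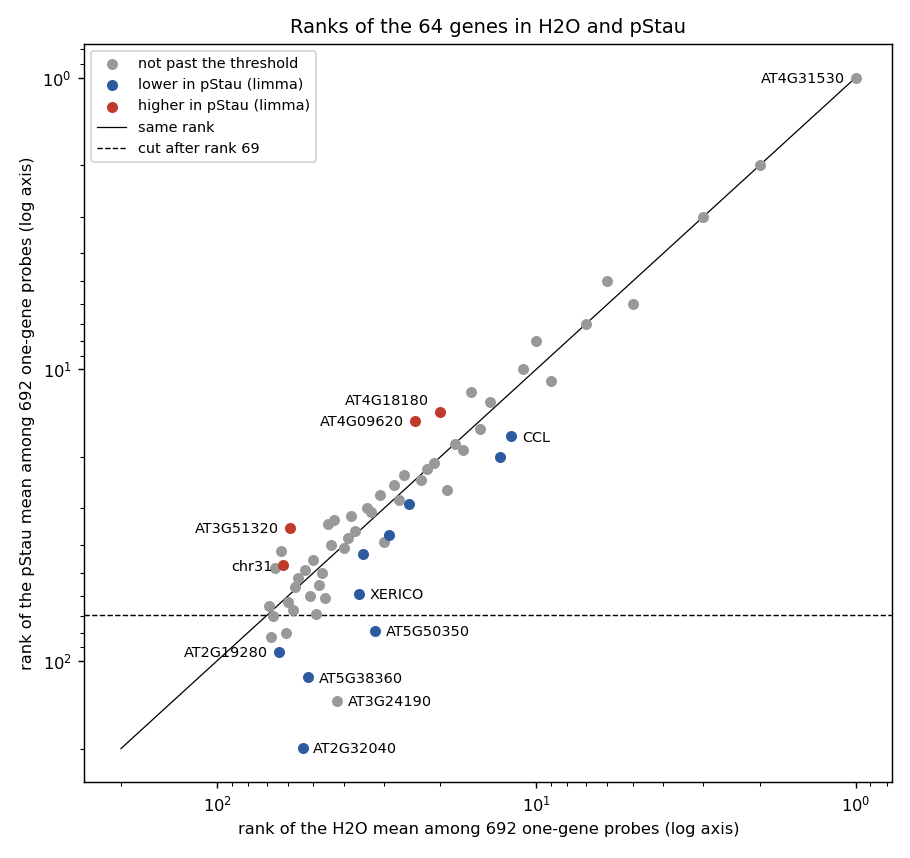
Rank of each of the 64 genes by mean deposited value over 6 H2O arrays (x axis) and over 6 pStau arrays (y axis), among 692 probes with 1 gene, on log axes with rank 1 at the upper right. Most points lie along the line of equal rank, and 8 lie below the dashed cut after rank 69. AT2G32040 lies lowest, at rank 199. Colours give the limma call from quantile-normalized values.

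The 8 genes that left the top 10% were AT2G32040, AT3G24190, AT5G38360, AT5G50350, AT2G19280, AT2G36480, AT4G21170 and AT1G22700. Because the genes were chosen for their height in H2O, which also sets the rank each starts from, the choice favours drops. The largest drop was that of AT2G32040, a folate transporter of the plastid envelope, from rank 54 to rank 199. AT3G24190 went from 42 to 137, AT5G38360 from 52 to 114, AT5G50350 from 32 to 79 and AT2G19280 from 64 to 93. AT1G22700, which encodes the tetratricopeptide protein Pyg7 needed to assemble photosystem I, only moved from 67 to 70 across the cut. Into the pStau top 10% came 11 probes from below the H2O cut, the farthest being AT1G49870, from rank 173 to 68, and AT1G78620, from 139 to 64. Of the 13 probes in the pStau top 10% that are not among the 64 genes, 3 are genes set aside by name.

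Differences between the groups were taken from 1 limma fit over all 3256 probes with a value above 0, on log2 of quantile-normalized intensities, with p-values adjusted by Benjamini-Hochberg over all of them and a threshold of 0.05. The H2O arrays both chose the 64 genes and enter each difference, so the counts over the 64 are a description. Of the 64 genes, 4 were higher in pStau, where the background is 16.5% of all probes, and 10 were lower, where it is 18.8%. Together 14 of 64, or 21.9%, passed, against 35.3% of all probes tested and 38.4% of the 588 other tested probes with 1 gene. The median size of the log2 difference, sign aside, was 0.24 for the 64 genes and 0.43 for all probes. The median difference was -0.04 for the 64 genes and -0.0041 for all probes. With consecutive arrays treated as a random block, 6 of the 64 passed (1 higher and 5 lower, with backgrounds of 7.99% and 8.11%), namely AT3G51320, AT4G39690, AT5G50350, XERICO, AT5G38360 and AT2G32040. With the replicate number as a block, 19 passed against 39.3% of all probes, 5 higher (18.4%) and 14 lower (20.9%). With consecutive arrays averaged to 3 values a group, 0 of the 64 passed in limma at the adjusted threshold, and 3 of all 3256 probes did. At an unadjusted p under 0.05 the fit on separate arrays called 20 of the 64 and 1478 of all 3256 probes. The 4 rises became 2 without H2O array 3 or 5, or without pStau array 3 or 4.

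The direction of the set as a whole rested on the scaling. As deposited, the median log2 difference was 0.14 for the 64 genes and -0.80 for all probes, and 12 of the 64 were higher and 6 lower, against 5.62% and 46.7% of all probes. With arrays centred on their median the values were 1.001 and 0.06, and 49 of the 64 were higher and 1 lower, against 28.1% and 15% of all probes. The gap between the 64 genes and all probes was 0.94 with both of these scalings. That is 1 result, since centring shifts all probes of an array alike. The gap was -0.04 after quantile normalization and -0.07 with cyclic loess. With cyclic loess 3 were higher and 12 lower, against 15.6% and 17.5% of all probes. Quantile normalization gives all arrays the same distribution of values, which limits the gap that a set from its top can show. Single differences below are from quantile-normalized values unless stated. Of the 64 differences, 38 were below 0 after quantile normalization and 4 with arrays centred on their median. For the 10 genes that passed as lower, the value with arrays centred on their median is given beside the call.

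**Figure D2:**
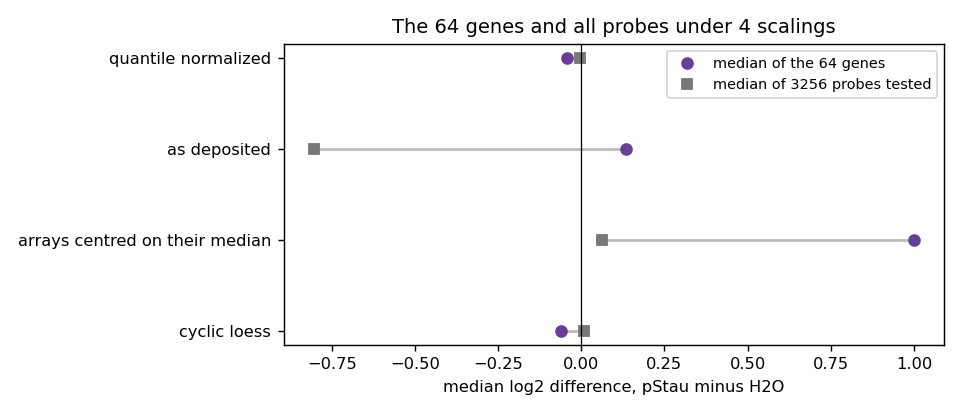
Median log2 difference (x axis, pStau minus H2O) of the 64 genes (circles) and of the 3256 probes tested (squares) under 4 scalings of the arrays. The circles range from -0.06 with cyclic loess to 1.001 with arrays centred on their median. The 2 medians lie close together after quantile normalization and cyclic loess. They lie 0.94 apart with the other scalings, where the gap is equal by construction.

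The share of each array's total signal that the 64 probes carried draws on the same deposited values, so it is not a separate result. That share was 13.0% at the lowest, 14.1% at the median and 14.8% at the highest of the H2O arrays, and 15.6%, 18.0% and 18.5% of the pStau arrays. The 2 groups did not overlap. Without the first 3 genes the shares were 6.68% to 8.17% in H2O and 8.83% to 10.5% in pStau. The pStau arrays with the larger shares, 3 to 6, were those with the lowest medians over all probes. The part of array processing in this difference was not tested.

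**Figure D3:**
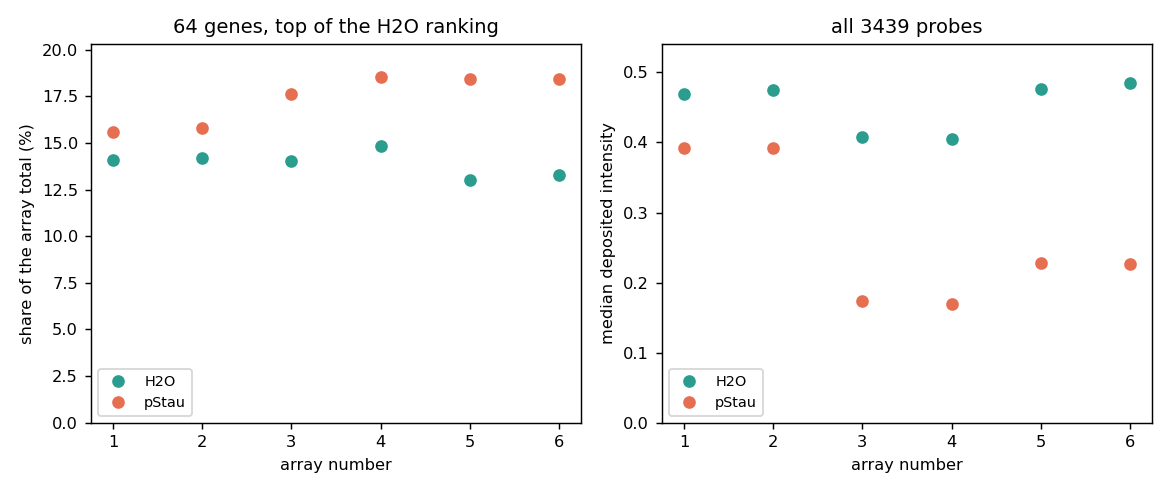
Left, share of the array's total deposited intensity carried by the 64 genes (y axis, percent) for each array number (x axis). Right, median deposited intensity of all 3439 probes on the same arrays. The share was 13.0% to 14.8% on H2O arrays and 15.6% to 18.5% on pStau arrays, and the medians were lower on pStau arrays, most of all on arrays 3 to 6.

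The first places were held by the same genes in both groups. AT4G31530, a protein with an NAD(P)-binding Rossmann fold, had rank 1 on all 12 arrays. It read 100, the highest value in the table, on all 6 pStau arrays and 4 H2O arrays, and 85.3 and 91.6 on H2O arrays 5 and 6. Since 100 may be a ceiling, no fold is given for it. AT4G22830 had values of 52.7, 56.8 and 72.2 in H2O (lowest, median and highest) and of 74.4, 84.6 and 95.4 in pStau. The groups did not overlap as deposited, where the log2 difference was 0.48 and passed (limma adjusted p = 0.0160). After quantile normalization it was 0.14 ± 0.10 (SE, n = 6 per group, limma adjusted p = 0.322). Quantile normalization gives equal ranks equal values on every array. It thus leaves little room for a difference in this gene, which ranked 2 or 3 among probes with 1 gene on each array. AT2G27290 stayed at rank 3, with a mean of 55.9 ± 12.5 in H2O and 73.0 ± 8.86 in pStau (SD, n = 6).

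Further down the first 10, AT1G73120 had H2O values of 6.77, 14.7 and 24.6 and pStau values of 26.5, 28.6 and 40.4. AT1G16080 had 8.16, 13.1 and 18.0 in H2O and 18.5, 24.0 and 38.7 in pStau. For both genes every pStau value lay above every H2O value, but neither passed after quantile normalization (limma adjusted p = 0.112 and 0.175). As deposited their log2 differences were 1.18 and 0.97 and passed (limma adjusted p = 0.0131 and 0.0107). AT5G52810, or SARD4, a reductase of the synthesis of the immune signal pipecolic acid, averaged 11.1 ± 4.52 in H2O and 19.0 ± 2.43 in pStau. After quantile normalization its log2 differences in the 3 sets of consecutive arrays were 1.13, 0.59 and -0.61, so they did not run one way. It did not pass there (limma adjusted p = 0.472). As deposited it was higher in pStau for each of the 6 array numbers, and its log2 difference of 0.86 passed (limma adjusted p = 0.0125).

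AT4G17070, a peptidyl-prolyl isomerase-type protein, and AT4G19900, a glycosyltransferase, differed widely between arrays of the same group. AT4G17070 read 2.99 on H2O array 3 and 3.40 on pStau array 3, against 26.3 and 37.4 on array 4 of each group. AT4G19900 read 5.97 and 8.67 on array 4 of the groups, against 15.3 and 22.0 on array 3. Arrays of the same number in both groups thus shared these low readings. AT2G46220 read 8.85, 9.72 and 12.4 in H2O and 8.47, 15.6 and 23.6 in pStau, with overlap, and did not pass after quantile normalization. As deposited its log2 difference was 0.63 and passed near the threshold (limma adjusted p = 0.0483).

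CCL, a gene known for clock control and for an unstable transcript, was the highest-ranked of the 64 to pass. It read 7.49, 7.97 and 8.62 in H2O and 4.68, 5.44 and 10.2 in pStau, where arrays 5 and 6 lay above all H2O arrays and the other 4 below them. Its log2 difference was -0.71 ± 0.24 (SE, n = 6 per group, limma adjusted p = 0.0361). Without 1 array at a time, the call was lost for 8 of the 12 (adjusted p up to 0.0767). With arrays centred on their median the difference was 0.54.

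The falls of AT2G32040, AT5G50350 and XERICO and the rise of AT3G51320, 4 calls in all, held in several alternatives. These were consecutive arrays as a random block, each set of consecutive arrays left out, values as deposited, scaling to the same total and cyclic loess. With consecutive arrays averaged, 0 of the 4 passed (limma adjusted p of 0.106, 0.0631, 0.117 and 0.126, in the order named). With arrays centred on their median, AT2G32040 and AT3G51320 passed and the others did not. AT2G32040 read 1.57, 1.63 and 2.08 in H2O and 0.195, 0.280 and 1.05 in pStau, so the groups did not overlap. It was 3.41-fold lower (log2 difference -1.77 ± 0.29, SE, n = 6 per group; adjusted p = 0.00129 in limma) and, as deposited, lower in pStau for each of the 6 array numbers. The log2 difference was -0.69 for the first set (arrays 1 and 2), -1.94 for the second (3 and 4) and -2.68 for the third (5 and 6). The difference was -2.18 as deposited and -1.32 with arrays centred on their median, and both passed.

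AT5G50350, for which no role is stated, read 2.50, 2.84 and 3.41 in H2O and 0.937, 1.28 and 1.61 in pStau. It was 2.53-fold lower (log2 difference -1.34 ± 0.10, SE, n = 6 per group, adjusted p = 1.35e-05 in limma), with -1.45, -1.32 and -1.26 in the 3 sets. Among the 64 genes this was the smallest adjusted p, but it takes the 6 arrays as independent. With consecutive arrays averaged to 3 values a group, the limma adjusted p of AT5G50350 was 0.0631. With arrays centred on their median its difference was -0.36 and did not pass. XERICO, a RING-type protein that raises abscisic acid levels, read 2.05, 2.61 and 2.99 in H2O and 1.49, 1.63 and 1.81 in pStau. Its log2 difference was -0.74 ± 0.13 (SE, n = 6 per group, limma adjusted p = 0.00169), with -0.74, -0.83 and -0.65 in the sets, and after centring arrays on their median it turned to 0.25 and did not pass.

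AT5G38360, an alpha/beta hydrolase-type protein, read 1.27, 1.77 and 2.26 in H2O and 0.577, 0.770 and 1.23 in pStau. It was 1.99-fold lower (n = 6 per group, limma adjusted p = 0.0105). Its log2 differences in the sets were -1.92, -0.93 and -0.13. With arrays centred on their median its difference was -0.23 and did not pass. AT3G24190 did not pass (log2 difference -1.12 ± 0.49, SE, limma adjusted p = 0.0976). It read 0.211, 0.712 and 1.28 in pStau, and the high H2O array 4 enters this difference. Blocking on replicate number it passed (adjusted p = 0.0466). AT2G19280, a pentatricopeptide repeat protein, had a log2 difference of -0.42 (n = 6 per group, limma adjusted p = 0.0220), which turned to 0.34 with arrays centred on their median. AT4G21170, another such protein, and AT3G54550 dropped from rank 61 to 80 and from 49 to 69 without passing (limma adjusted p = 0.164 and 0.0989). AT3G54550 passed as lower when replicate number was a block (adjusted p = 0.0256), and its difference of -0.43 turned to 0.39 with arrays centred on their median.

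AT3G51320, a pentatricopeptide repeat protein, read 1.39, 1.61 and 1.81 in H2O and 2.32, 2.67 and 2.74 in pStau. It was 1.48-fold higher (log2 difference 0.57 ± 0.10, SE, n = 6 per group, limma adjusted p = 0.00180), moved from rank 59 to 35, and was the only one of the 64 whose ranks on all 6 pStau arrays were above those on all 6 H2O arrays, where the background is 9.97% of probes with 1 gene. The ranks of AT5G50350, XERICO and AT2G32040 were separated the other way, 3 of 64, where the background is 6.36%. As deposited, values were separated upward for 5 of the 64 genes, against 3.35% of all probes, and downward for 5, against 20.2%.

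AT4G18180, a pectin lyase-like protein, read 3.86, 4.18 and 6.51 in H2O and 7.36, 8.06 and 8.88 in pStau. It was 1.34-fold higher (n = 6 per group, limma adjusted p = 0.0101). As deposited it was higher in pStau for each of the 6 array numbers, but with consecutive arrays as a random block its adjusted p was 0.132. AT4G09620, of the mTERF family of organelle nucleic acid-binding proteins, was 1.74-fold higher (limma adjusted p = 0.0343, n = 6 per group). It read 2.07, 2.93 and 6.34 in H2O and 4.79, 7.73 and 8.95 in pStau, so the groups overlapped, and 8 of the 12 arrays could each end its call by their absence. The chromatin remodelling ATPase chr31 of the CLASSY family was 1.22-fold higher (n = 6 per group, limma adjusted p = 0.0265), and 4 of the 12 arrays could each end that call by their absence.

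**Figure D4:**
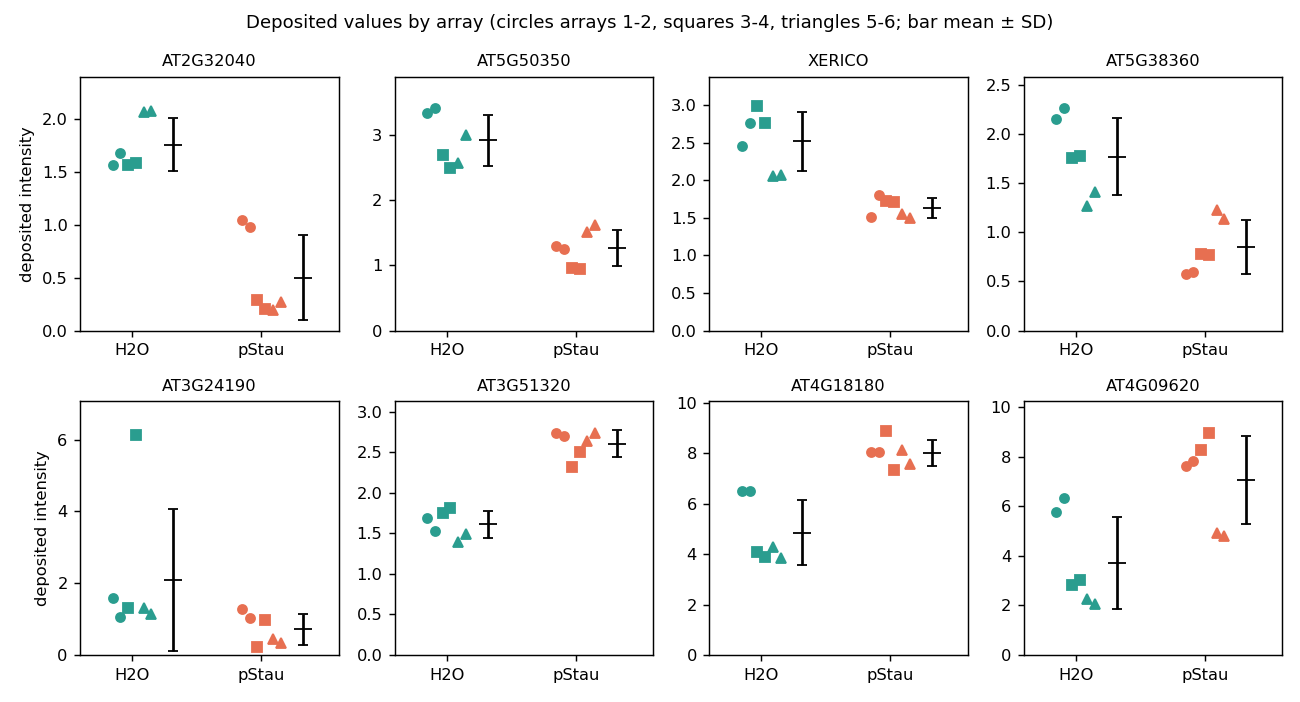
Deposited intensity (y axis, linear) on each of the 12 arrays for 8 of the genes whose rank moved most or that passed the test, with the mean and SD of each group beside the points. Circles are arrays 1 and 2, squares 3 and 4, triangles 5 and 6. AT2G32040, AT5G50350, XERICO and AT5G38360 are lower on all pStau arrays, AT3G51320 and AT4G18180 are higher on all, and AT3G24190 has 1 H2O array at 6.12.

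By function, the largest class with a stated role was that of RNA and chromatin proteins, with 9 genes. Of these, 3 rose (AT3G51320, AT4G09620 and chr31), 1 fell (AT2G19280) and 5 did not pass, with a median log2 difference of -0.06. Over all probes tested, 16.5% passed as higher and 18.8% as lower. Neither this class nor the smaller ones below were tested against those shares. With consecutive arrays as a random block, AT3G51320 alone in this class passed. Its highest gene in H2O was AT1G01080, a plastid RNA-binding protein, at 5.68 ± 4.27 in H2O and 11.4 ± 6.71 in pStau (SD, n = 6). Its differences in the 3 sets were -0.66, 0.74 and 2.32, and it did not pass (limma adjusted p = 0.170). The 4 pentatricopeptide repeat genes of the class thus held 1 rise and 1 fall, and AT3G26630 and AT4G21170 did not pass. AT1G13370, a histone of the H3 family, did not pass either (-0.46 ± 0.22, SE). AT3G26630 and AT1G13370 passed, as lower, with the replicate number as a block (limma adjusted p = 0.0281 and 0.0421). Their differences of -0.27 and -0.46 turned to 0.97 and 0.41 with arrays centred on their median.

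Of 5 genes of amino acid, nitrogen and folate metabolism, 2 fell and 3 did not pass. Beside AT2G32040, the one that fell was AT5G10920, argininosuccinate lyase of arginine synthesis. It read 2.24, 2.59 and 3.13 in H2O and 1.20, 2.33 and 2.58 in pStau, with a log2 difference of -0.63 (n = 6 per group, limma adjusted p = 0.0276). Without 1 array at a time its call was lost for 4 of the 12, and the value turned to 0.44 with arrays centred on their median. CYN, cyanase, read 1.48 and 1.49 on H2O arrays 1 and 2 and 5.99 to 6.95 on the other H2O arrays, and its differences in the sets were 1.39, -0.90 and -1.33. AT-HF, which catalyses a step of histidine synthesis, did not pass (-0.17 ± 0.19, SE).

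Of 3 mitochondrial genes, 2 fell and 1 did not pass. AT4G39690, or MIC60, which shapes the inner membrane, read 2.94, 3.26 and 3.45 in H2O and 2.12, 2.64 and 2.86 in pStau, without overlap. Its log2 difference was -0.69 ± 0.15 (SE, n = 6 per group, limma adjusted p = 0.00672). AT4G32060, or MICU, a calcium-sensing regulator of the mitochondrial calcium uniporter, had a difference of -0.37 (n = 6 per group, limma adjusted p = 0.0181), although as deposited its pStau values (3.02 to 3.86) lay within the range in H2O and its difference was -0.05. With arrays centred on their median these falls turned to 0.53 and 0.82. AT4G17650, a COQ10-like protein, had a difference of -0.09 ± 0.23 (SE).

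The 4 signalling genes held 1 fall, that of XERICO. The protein kinase AT5G40030 (-0.24 ± 0.13, SE), AT3G24190 and the calmodulin-like CML30 (-0.01 ± 0.20, SE) did not pass. Of 7 genes with other stated roles, 3 fell, namely CCL, AT5G38360 and AT3G06200, the guanylate kinase of the organelles. AT3G06200 read 6.66, 6.91 and 9.38 in H2O and 4.49, 5.84 and 7.30 in pStau, with a log2 difference of -0.67 (limma adjusted p = 0.0221, n = 6 per group) that turned to 0.48 with arrays centred on their median. It was 0.18 in the first set and -1.10 in both others. Blocking on replicate number gave an adjusted p of 0.0723. The rhodanese-like AT4G27700 moved from rank 43 to 33 without passing. The ARM repeat protein AT1G51350 passed as higher with the replicate number as a block (limma adjusted p = 0.0392) and not without it (0.202).

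None of the 3 genes of the light reactions passed (0 of 3). AT4G24930, a thylakoid lumen protein, read 0.887, 1.35 and 2.38 in H2O and 2.02, 2.12 and 2.91 in pStau and moved from rank 63 to 42. Its adjusted p of 0.0622 lay near the threshold, and it passed as deposited (log2 difference 0.67, limma adjusted p = 0.0482). AT1G76450, a PsbP-domain protein of the thylakoid lumen, had differences of 0.44, -0.40 and -0.95 in the sets. AT1G22700 read 1.11, 1.33 and 2.04 in H2O and 1.13, 1.37 and 1.58 in pStau.

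The 3 pfkB family genes also gave 0 calls. The ribokinase AT1G17160 moved from rank 45 to 34 (log2 difference 0.33 ± 0.13, SE, limma adjusted p = 0.0737), AT1G06730 from 34 to 30 and AT1G50390 from 58 to 67. AT1G50390 passed as lower with the replicate number as a block (limma adjusted p = 0.0397), and its difference of -0.21 turned to 0.66 with arrays centred on their median. The 4 oxidoreductases, AT4G31530, AT3G03890, AT3G04650 and AT4G29890, gave 0 calls, and the differences of the last 3 lay between -0.15 and 0.0041. Of 3 cell wall and secretion genes 1 rose, AT4G18180. The Golgi tethering subunit AT1G73430 (0.17 ± 0.13, SE) and AT4G19900 did not pass. Neither did the 2 genes of protein folding and proteolysis, AT4G17070 and AT4G07670, or the 1 gene of cytosolic translation, AT3G59980. The 20 genes with no stated role held 1 fall, AT5G50350, and 19 that did not pass, with a median log2 difference of -0.0028. AT3G26580 moved from rank 66 to 48 among them without passing.

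**Figure D5:**
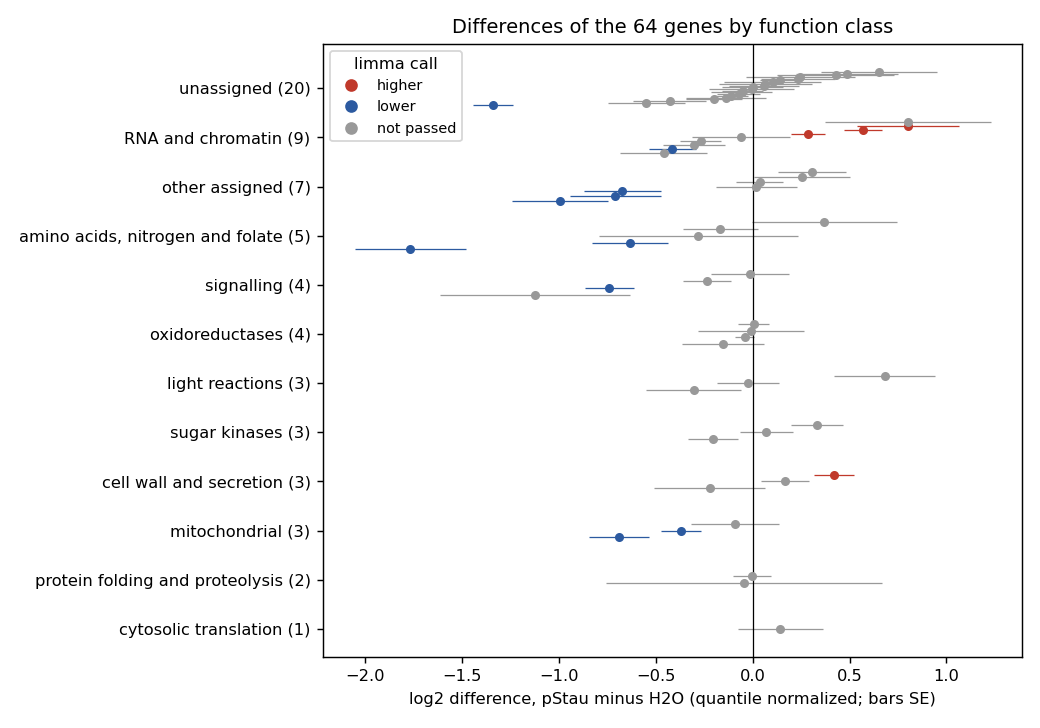
Log2 difference (x axis, pStau minus H2O, quantile normalized, bars SE, n = 6 per group) of each of the 64 genes by function class, with the number of genes in brackets. The 4 rises lie in the RNA and chromatin class (3) and the cell wall and secretion class (1). Over all probes tested, 16.5% passed as higher and 18.8% as lower. The largest falls are those of AT2G32040 and AT5G50350. With arrays centred on their median, 7 of the 10 falls changed sign.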

How the data were processed

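The intensity values are those the authors deposited in 1 table for the series, taken here as linear. Background correction, scaling and centring by the authors are not given in the sources used here, so scale and centring stay unknown. Groups follow the sample titles in the labels. Array medians differed up to 2.87-fold. Positive values were quantile normalized, and zeros and values below the 1st percentile (0.0167) were raised to it before log2. Probes at 0 on all arrays (183) were left out. limma 3.58.1 (lmFit, eBayes, R 4.3.3) gave two-sided tests. The fit was also run on simulated data in which all arrays were independent. That run lacks the closeness of consecutive and same-numbered arrays, so it cannot show how the p-values behave here. Precision is limited by the number of arrays.

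Gene names are from the platform annotation, which may be out of date, and the TAIR10.1 RefSeq gene table matched 690 of 692. Of 3439 probes, 870 had several genes and 1877 none.

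The genes, classes and lists were chosen with earlier results of these data known. The naming rule took the first 10 genes in H2O, the 8 largest rises and 8 largest falls in rank, the 3 on each side of the cut, the highest gene and the largest rank fall of each class of 3 or more, and genes at the table's highest value. AT3G06200, AT4G32060 and AT5G10920, the probes entering the pStau top 10%, and other genes named for a class or a blocked call were chosen after their values were seen.

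Same-numbered arrays of the 2 groups deviated together (r of 0.31 to 0.54 for all 6 numbers, each over 0.1). The replicate number was therefore used as a block, but only in an alternative fit. The main fit compared the groups without pairing, and SEs and p-values are from it unless stated. The labels do not say what the numbers mark. Alternatives covered scaling, floor, dim probes, variance model, replicate block, consecutive arrays and arrays left out.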

Additional observations from a re-analysis of the deposited data

Results flagged for a closer look

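AT3G24190 had 1 value apart from its group. It read 6.12 on H2O array 4 and 1.59 on the next highest H2O array, so the gap made up 0.897 of the range of the 6 H2O values. The screen covered 80 groups of 6 arrays, and chance alone flags about 1 in 20 where the 6 values are independent. Consecutive arrays were close to each other, so that rate need not hold here. That reading decided whether AT3G24190 belonged to the top 10%. On pStau array 4 the gene read 0.987.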

How the results depend on the processing

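With consecutive arrays averaged, 0 of the 64 genes passed (0 higher, 0 lower), and 3 of all probes did; a block for the set gave 0 and 0. As a random block they gave 6 (1 higher, 5 lower) and 524 probes. Without arrays 1 and 2 the count was 25 (9 higher, 16 lower; 1350 of 3256 probes), without arrays 3 and 4 it was 5 (2 and 3; 483 probes), and without arrays 5 and 6 it was 10 (5 higher, 5 lower; 506 probes). As deposited, 12 were higher and 6 lower with a median difference of 0.14, and scaled to the same total 12 and 6 with 0.12 (1808 probes). Centred on the median, 50 passed, 49 higher and 1 lower, with a median of 1.001, and 4 of the 64 differences were below 0, against 38 after quantile normalization. Among the genes named by rule or for passing, other than AT4G31530 at the table's highest value, those that changed sign and passed in either fit were AT2G27290 1.27, AT4G19900 1.31, CCL 0.54, AT3G06200 0.48, AT1G76450 0.93, AT4G17650 1.11, AT4G32060 0.82, AT5G40030 0.99, AT4G39690 0.53, AT5G10920 0.44, XERICO 0.25, AT3G03890 0.81, AT1G50390 0.66, AT4G21170 0.47, AT2G19280 0.34, AT1G22700 0.75 and AT2G36480 0.62. The cause was not tested. With the replicate number as a block 19 passed (5 higher, 14 lower), 13 of the 14 among them. It lost AT3G06200 and added AT3G24190, AT3G54550, AT3G26630, AT1G13370, AT1G50390 and AT1G51350. Without single arrays 10 to 18 passed, 2 to 6 higher and 8 to 12 lower, against 969 to 1248 of 3256 probes, and 54 to 56 genes stayed in the pStau top 10%. A difference not past the threshold in either fit was not counted as a change.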
